A study of Mus musculus with 2 samples.

Results

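The genes described here are 36 mouse genes of glucose breakdown and of the response of cells to low oxygen, out of 27998 genes in the deposited matrices. They fall into 17 genes of glycolysis, from the glucose transporter Slc2a1 to the lactate exporter Slc16a3, and 19 genes of a hypoxia subset, most of them targets of the hypoxia-inducible factor HIF. The genes were listed by name and not by a measured difference, but earlier results of these data were known when the list was made. All 36 genes were found by symbol in the matrices. Their molecules (unique molecular identifiers, UMIs) were summed over the cells of each cell label and library, and a gene was described in a label where it had at least 20 UMIs over both libraries.

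The cells were live (DAPI-) CD45+ leukocytes sorted from YUMM1.7 melanomas, tumours of a mouse melanoma cell line, 19 days after 100000 tumour cells mixed with Matrigel had been injected into the flank. The hosts of the first group carried a knock-in of human APOE2 and those of the second a knock-in of human APOE4, with 6 mice in each, so both groups express a human form of apolipoprotein E, and no mice with another allele were analysed here. Cells were sorted mouse by mouse, 10000 from each, and then pooled by genotype, so that 1 library of 3′ single-cell RNA-seq, made from 60000 pooled cells with 5000 targeted, stands for each genotype. The mice of a pool cannot be told apart, the spread between mice is unknown, and a difference between genotypes cannot be told apart from a difference between libraries. No test was therefore possible, and every interval below is a 95% interval of counting error alone, except those of list medians, which give the spread over the members. The age and sex of the mice were not given in the sources used here.

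The APOE2 library held 4665 cells with a name from the authors' annotation, with a median of 7160 UMIs per cell, and the APOE4 library held 5385, with a median of 5560. The annotation has 26 labels, of which 24 had at least 20 cells in each library. The labels came from clustering on all genes, these 36 included, so a label is described and never tested against the rest. Labels were also summed into 5 classes, the monocyte/macrophage class, the class of myeloid-derived suppressor cells (MDSC), the dendritic cell (DC) class, the T class and the natural killer (NK) class. All 4 MDSC labels held neutrophil markers such as S100a8 and S100a9 above any other marker list, the label Monocytic DCs held proliferation genes above the others, and the label Stromal cells held stromal markers in spite of the CD45 sort. A total of 8 cell barcodes occurred in both libraries.

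Glycolysis splits glucose into pyruvate in the cytosol, yields a little ATP without oxygen, and leaves lactate when the pyruvate does not enter the mitochondria. Under low oxygen the prolyl hydroxylases, among them Egln1 and Egln3, no longer mark HIF-1α for destruction, and HIF raises the transcription of most glycolytic enzymes together with genes of mitophagy, lipid storage and feedback. Activated macrophages, neutrophils and T cells also run this programme in the presence of oxygen, and tumour-associated myeloid cells in poorly perfused regions are known for high levels of it.

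HIF binds a short core motif, ACGTG on either strand (CACGT when read from the opposite strand), or its variant GCGTG, which reads CACGC from the opposite strand. In the 250 bases before the RefSeq transcript starts, ACGTG was found on at least 1 strand, before any listed start of a gene, in 21 of the 34 members with a promoter entry, or 61.8%, against 18.5% of 27025 genes. It was found in 9 of 17 glycolysis genes and in 12 of 17 hypoxia genes with an entry. GCGTG was found in 64.7% of the 34 members and in 30.9% of all genes. Member promoters were also richer in G and C, with a median of 63.4% against 52.4%, and both motifs hold G and C, so the shares are given as a description. The windows below show the motif in 9 members that hold it and recur in the results. Other members named below, among them Pfkl, Higd1a, Tpi1, Gpi1, Gapdh and Mif, held no ACGTG in their 250 bases. Each is 30 bases of RefSeq sequence (build GRCm38.p6), written 5′ to 3′ on the strand of the gene, with 1 copy of the core motif in capitals. They lie at chr6:29272571-29272600 (Hilpda, plus strand), chr7:138909596-138909625 (Bnip3, minus strand), chr12:54204086-54204115 (Egln3, minus), chr8:46000071-46000100 (Ankrd37, minus), chr14:45318618-45318647 (Ero1l, minus), chr6:82774489-82774518 (Hk2, minus), chr7:46845745-46845774 (Ldha, plus), chr4:119108697-119108726 (Slc2a1, plus) and chr17:35821499-35821528 (Ier3, plus).
Hilpda: gatggccagcggACGTGccccagggcgagc
Bnip3: cgcacgcgccgcACGTGccacacgctcccc
Egln3: tgtgcatctcagACGTGagatccaggtttt
Ankrd37: cccagcagtACGTGcctagctcggctcgca
Ero1l: cgcgcgccgctgCACGTccgcaggggaggc
Hk2: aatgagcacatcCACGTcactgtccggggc
Ldha: ggcccagcctacACGTGggttcccgcacgt
Slc2a1: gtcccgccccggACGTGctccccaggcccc
Ier3: tcccaggaaagaACGTGcactggggcacct
The capitalised copy starts 43 bases before the downstream RefSeq start of Hilpda and 47 before the upstream RefSeq start of Ldha. It starts 107 bases before Bnip3, 229 before Egln3, 241 before Ankrd37, 63 before Ero1l, 52 before Hk2, 36 before Slc2a1 and 202 before Ier3. GENCODE starts Ankrd37, Ero1l, Ldha and Slc2a1 further upstream than RefSeq, so their windows lie at least in part within its gene bounds. The upstream RefSeq start of Hilpda is also its GENCODE start, and the 250 bases before it held no ACGTG. The Hilpda window shown thus lies within the GENCODE gene bounds. In Bnip3 the core stands inside CACGTG, which reads the same on both strands. A match says only that these letters stand in the window, and binding was not measured.

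The members' transcripts were found in every label, at levels that differed several-fold. Summed over the 17 glycolysis genes, macrophages of Mø cluster 2 held the most, 8648 UMIs per 1e+06 UMIs of the label (CPM) in the APOE2 library and 7232 in the APOE4 library. Plasmacytoid DCs (pDCs) held the least of the APOE2 library at 2007 CPM, with 1991 in the APOE4 library, where NKT cells were lowest at 1925. Among the labels with at least 20 cells, M-MDSC 1 held the most of the hypoxia subset, at 12398 and 7285 CPM. A large share of that sum came from 1 gene, the early response gene Ier3, with 58.1% of the subset's UMIs in the APOE2 library and 57.9% in the APOE4 library. Without Ier3, M-MDSC 1 held 5190.0 and 3067 CPM, against 3767 and 3189.8 in Mø cluster 2. The hypoxia subset was lowest in cDC 1, at 964 and 956 CPM, with the pDCs next in the APOE2 library at 977 and NK cluster 1 next in the APOE4 library at 971. Labels high in glycolysis were high in the hypoxia subset, with a Spearman correlation of 0.917 over the 24 labels of the APOE2 library and 0.807 over those of the APOE4 library. Without Ier3 the correlations were 0.830 and 0.655. All labels of a library share its chemistry, while their depth per cell differed. In the APOE2 library the median was 1631 UMIs in M-MDSC 1 and 13091 in cDC 1.

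**Figure D1:**
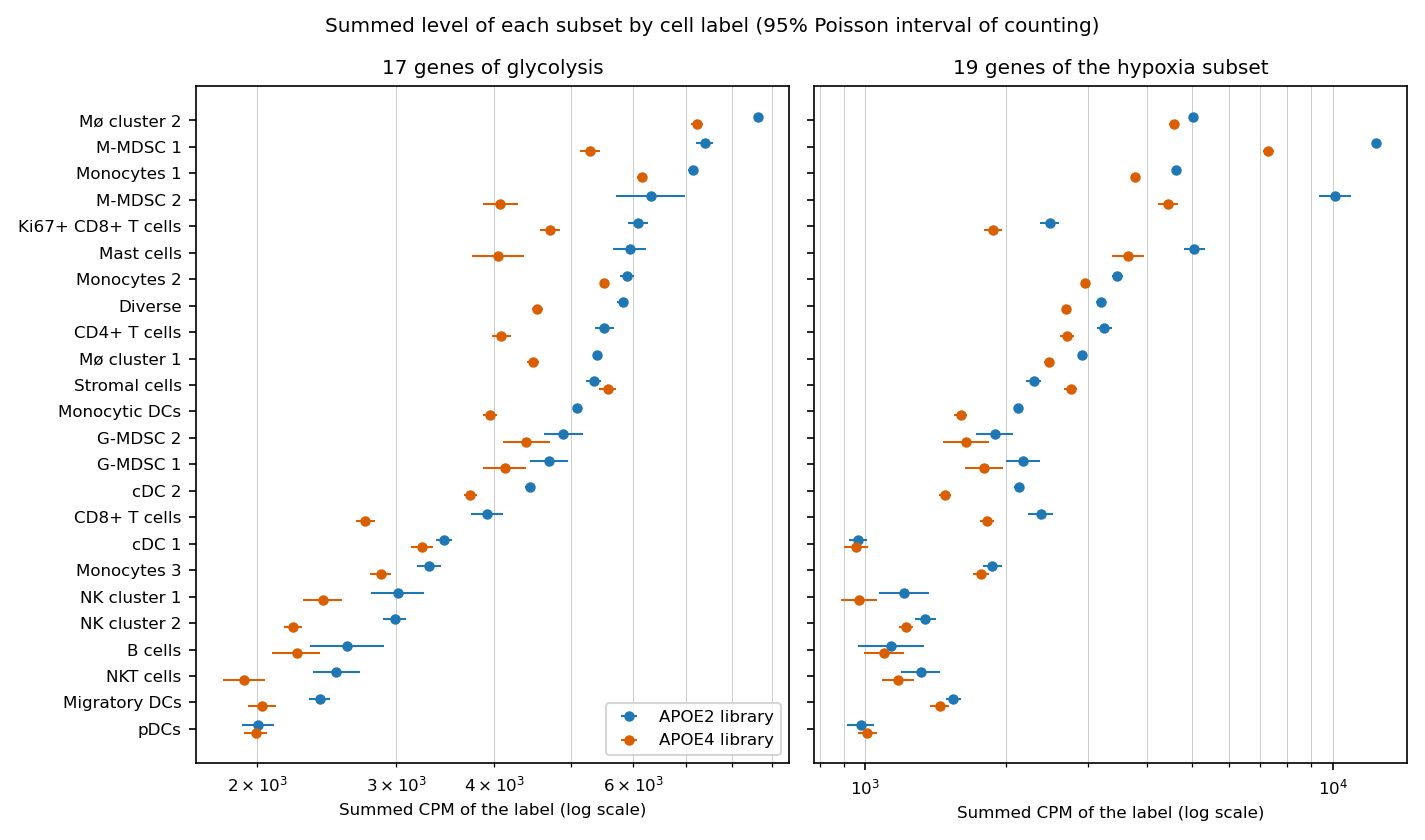
Summed CPM (log scale) of the 17 glycolysis genes and of the 19 genes of the hypoxia subset in the 24 labels with at least 20 cells in each library, ordered by the glycolysis level of the APOE2 library. Points are the APOE2 library (blue) and the APOE4 library (orange), bars are 95% Poisson intervals of counting, and of these labels only the Stromal cells have an interval of the ratio above 1 in both panels, a direction that turned when cells were thinned to 1500 UMIs.

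Of the 36 members, 22 had the same highest label in both libraries. In 9 of them it was Mø cluster 2. Another 3 were highest in M-MDSC 1 in both libraries. Pfkfb3, which makes the activator of phosphofructokinase, and Mxi1, a MYC antagonist, were highest in Migratory DCs, and Hif1a, the oxygen-regulated subunit of HIF-1, and Ddit4, an inhibitor of mTOR signalling, in CD4+ T cells. Hk1, the constitutive hexokinase, and Ldha, which turns pyruvate into lactate, were highest in Mast cells, Slc16a3 in G-MDSC 1, the platelet-type phosphofructokinase Pfkp in cDC 1, Higd1a, a mitochondrial protein of the respiratory chain, in Ki67+ CD8+ T cells, and P4ha1, which hydroxylates prolines in collagen, in the Stromal cells.

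In the APOE4 library most members had a lower share of the molecules of the same label than in the APOE2 library. Over the 24 labels, the median log2 ratio of APOE4 to APOE2 over the members measured was below 0 in 22, while the median over all genes was below 0 in 6. The glycolysis median was below 0 in 21 labels and the hypoxia median in 22. The member medians ran from -0.99 in M-MDSC 2 to 0.22 in the Stromal cells. Only the Stromal cells and the pDCs had a median above 0, and in the map of ratios by label they stand at its right edge.

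**Figure D2:**
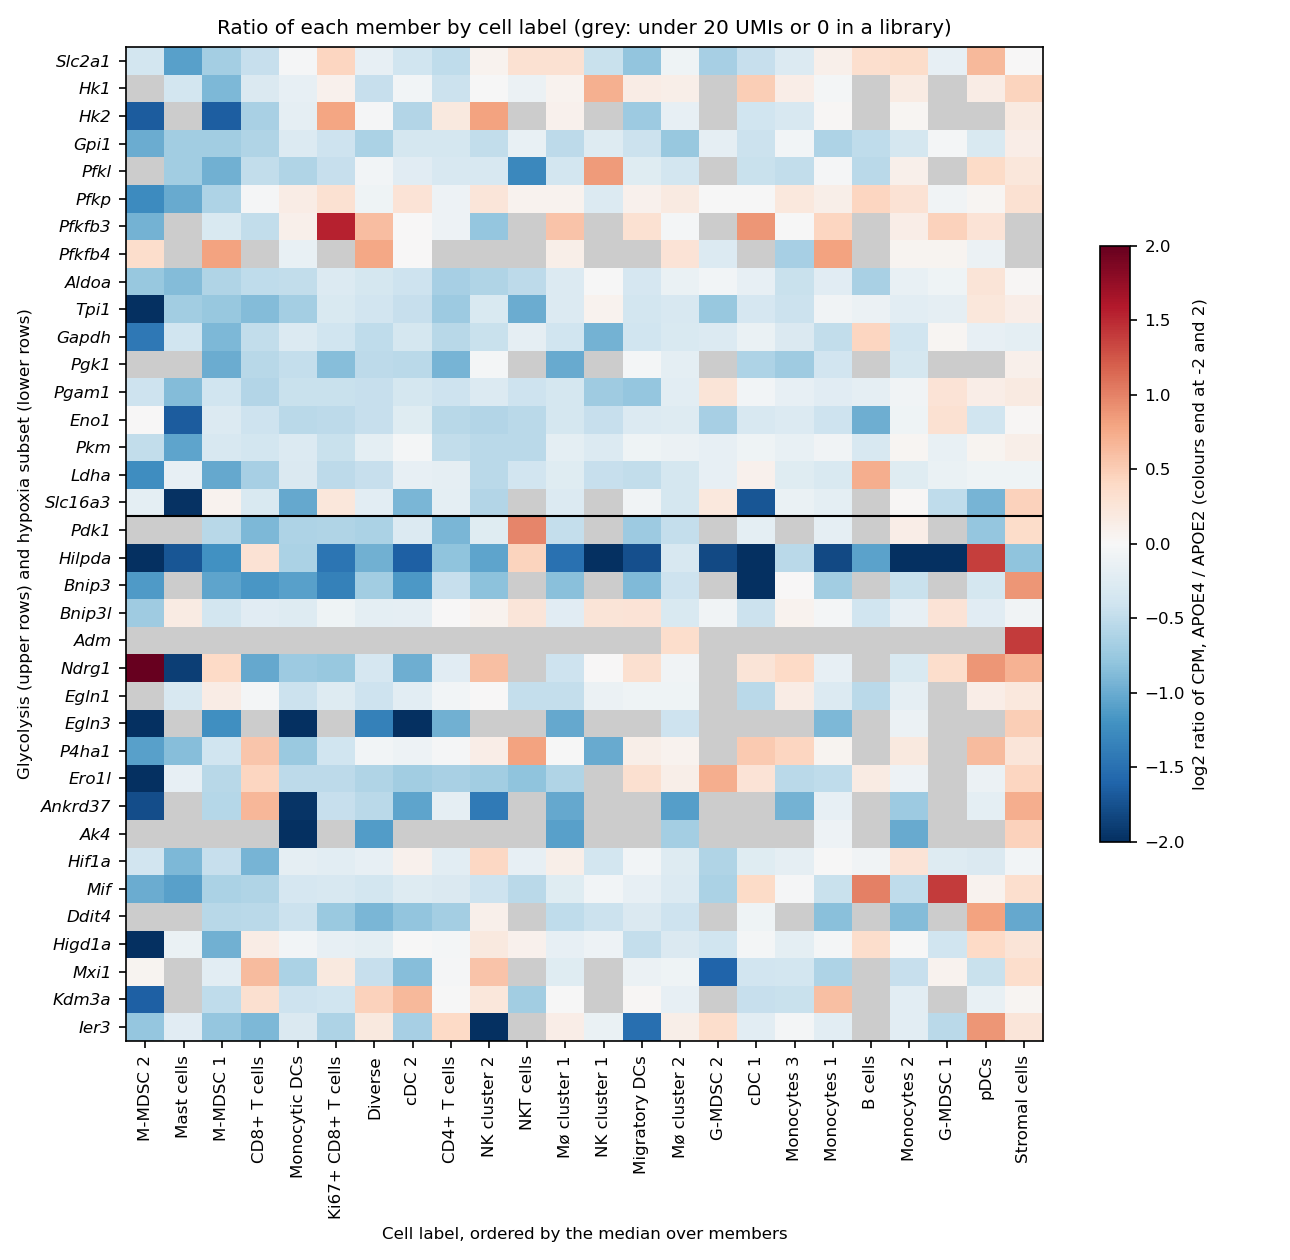
Log2 ratio of CPM (APOE4 over APOE2) of each member (rows, glycolysis above the line and the hypoxia subset below it) in each of the 24 labels (columns, ordered by their median). Blue is lower and red is higher in the APOE4 library, grey marks fewer than 20 UMIs over both libraries or 0 UMIs in 1 of them, and the median of the column is below 0 in 22 of the 24 labels.

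The MDSC class, 726 cells of the APOE2 library and 797 of the APOE4 library, held the clearest shift. Of 34 members measured, 32 had a ratio under 1, where 50.4% of all genes measured in the class did, and 5 were lower by at least 2-fold, where 4.49% of all genes were. No member was higher by at least 2-fold, against 4.82% of all genes. The median log2 ratio was -0.60 for glycolysis (interval over the members -0.76 to -0.29) and -0.64 for the hypoxia subset (-0.76 to -0.39). These cells were shallow, with a median of 1666 and 1682 UMIs, so that genes of low abundance have wide intervals.

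Along the pathway in the MDSC class, the transporter Slc2a1 was at 292 CPM in the APOE2 library and 211 in the APOE4 library, a ratio of 0.722 (0.624 to 0.835). Hk2, the inducible hexokinase, which traps glucose in the cell by phosphorylation, was at 126 and 49.1 CPM, a ratio of 0.388 (0.294 to 0.509). Pfkl, the liver-type phosphofructokinase, was at 85.9 and 42.8 CPM, a ratio of 0.498 (0.365 to 0.675). Hk2 and Pfkl were past 2-fold over all MDSC cells, but not in the MDSC cells without a macrophage marker UMI described below, where Hk2 was at 0.559 (0.370 to 0.840), Pfkl at 0.595 (0.345 to 1.02) and Slc2a1 at 0.821 (0.671 to 1.01). Tpi1, which interconverts the triose phosphates, was at 335 and 171 CPM, a ratio of 0.509 (0.437 to 0.591). Ldha was at 826 and 418 CPM, a ratio of 0.506 (0.459 to 0.557). Pkm, the pyruvate kinase, differed less, at 1223 and 1001 CPM and a ratio of 0.819 (0.765 to 0.876). At the end of the path the exporter Slc16a3 was close to even over all MDSC cells, at 1018 and 969 CPM and a ratio of 0.952 (0.886 to 1.02). In the MDSC cells without a macrophage marker UMI it was at 0.893 (0.815 to 0.978), near Pkm at 0.871 (0.796 to 0.953). Pfkfb4, a second maker of the phosphofructokinase activator, stood opposite to the rest at 70.8 and 104 CPM, a ratio of 1.47 (1.14 to 1.90). The other 9 glycolysis genes, from Gapdh at 0.592 to Pfkfb3 at 0.836, all had ratios under 1, and those of Pgk1 (26 and 17 UMIs) and Pfkfb3 had intervals that include 1.

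In the hypoxia subset of the MDSC class the lowest ratio belonged to Hilpda (on chromosome 6 from 29272488 to 29275446 of mm10, plus strand), which sits on lipid droplets and blocks their breakdown. It was at 1108 CPM in the APOE2 library and 374 in the APOE4 library, a ratio of 0.337 (0.307 to 0.371). Egln3, the hydroxylase that HIF itself induces, was at 274 and 104 CPM, a ratio of 0.381 (0.316 to 0.458). Higd1a was at 155 and 74.3 CPM, a ratio of 0.480 (0.381 to 0.603). These are the 3 hypoxia genes past 2-fold, of which Higd1a was not past it in MDSC cells without a macrophage marker UMI, at 0.626 (0.450 to 0.868). Bnip3, which tags mitochondria for removal, had 202 and 107 CPM, a ratio of 0.530 (0.436 to 0.642). Ero1l, the oxidase that forms disulfides in the endoplasmic reticulum, had 352 and 207 CPM, a ratio of 0.588 (0.511 to 0.677). Ier3, an early response gene that bears on cell survival, had 4891 and 3020.4 CPM, a ratio of 0.618 (0.595 to 0.641). Mif, a secreted cytokine, was also lower at a ratio of 0.641 (0.571 to 0.718), and Hif1a itself at 0.764 (0.645 to 0.905). In MDSC cells without a macrophage marker UMI Mif was at 0.707 (0.598 to 0.835). Hif1a was there at 0.860 (0.686 to 1.08), an interval that includes 1. Ndrg1, a gene of growth arrest under stress, was the only hypoxia gene with a ratio above 1, at 1.27 (0.985 to 1.64), and its interval includes 1. Adm, the vasodilator adrenomedullin, had 5 and 0 UMIs and Ak4, a mitochondrial adenylate kinase, 2 and 2, so neither was measured there. The other 8 hypoxia genes had ratios from 0.621 (Kdm3a) to 0.890 (Egln1). Over the 5 classes the member nearest above the minimum was Egln3 in the NK class with 9 and 14 UMIs, and the nearest below it was Pfkfb4 in the T class with 3 and 10.

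**Figure D3:**
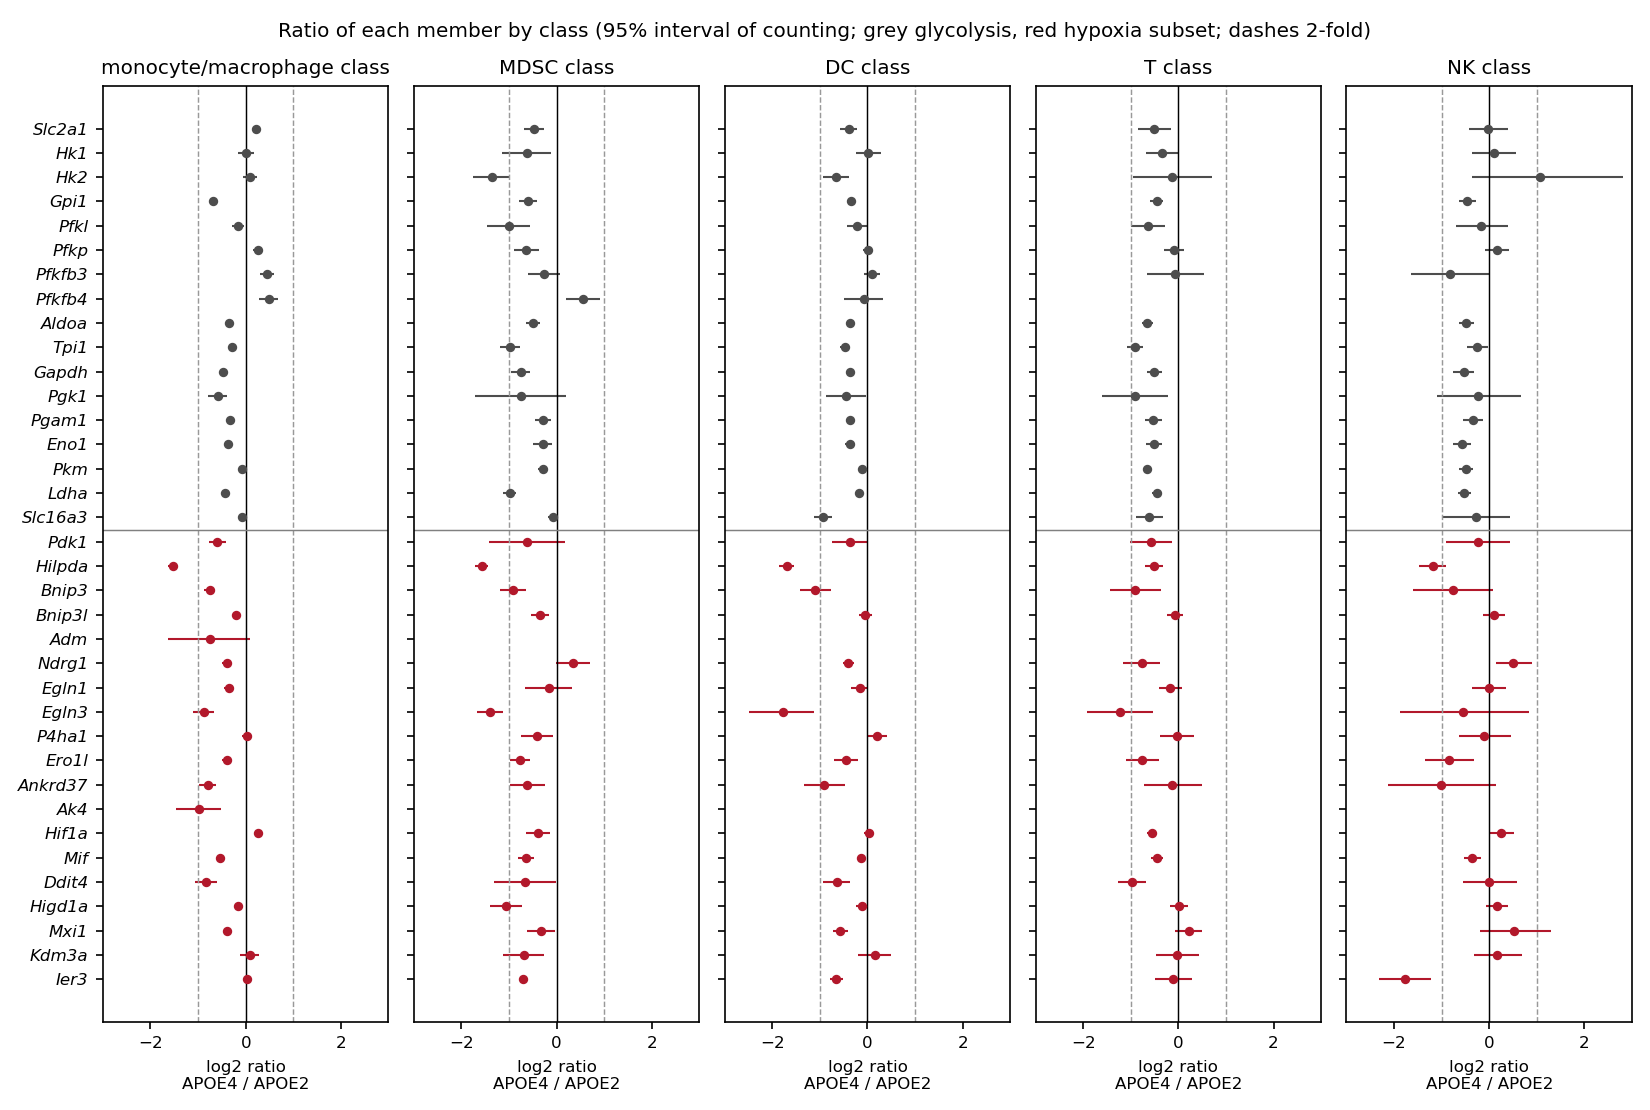
Log2 ratio of CPM (APOE4 over APOE2) of each member in the 5 classes, with 95% intervals of counting, for glycolysis genes (grey) and the hypoxia subset (red). Dashed lines mark 2-fold, and in the MDSC class 32 of 34 points lie left of 0, against 23 of 33 in the NK class.

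The MDSC labels are given apart. In M-MDSC 1, 30 of 34 members had a ratio under 1 (42.8% of all genes there), and 5 were lower by at least 2-fold (3.32% of all genes). In M-MDSC 2, 24 of 28 members had a ratio under 1 (40% of all genes), 13 were lower by at least 2-fold (6.08% of all genes) and 1 was higher by at least 2-fold (15.3% of all genes). In G-MDSC 1, 12 of 21 had a ratio under 1 (48.1% of all genes), and the member median was -0.08. In G-MDSC 2, with 29 and 28 cells, 16 of 20 had a ratio under 1 (52.6% of all genes), 2 were lower by at least 2-fold (7.24% of all genes), and the member median was -0.23. The difference between labels was not tested. M-MDSC 2 had 36 cells in the APOE2 library and 190 in the APOE4 library, so its APOE2 values rest on few cells. Without M-MDSC 2, an alternative chosen after seeing the data, the MDSC class had 3 members lower by at least 2-fold in place of 5, with medians of -0.52 and -0.50.

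Hilpda in M-MDSC 1 was at 1619.7 CPM in the APOE2 library and 699 in the APOE4 library, a ratio of 0.431 (0.391 to 0.476). With every cell thinned to 1500 UMIs, 34.4% of M-MDSC 1 cells held a Hilpda UMI in the APOE2 library and 17.4% in the APOE4 library, and without thinning 32.2% and 14.6%. For reference, the share in cDC 1, a label taken because it held almost none of the gene, was 1.40% and 1.10% after thinning (12.5% and 3.30% before). The median depths were 1631 and 1619 UMIs in M-MDSC 1 against 13091 and 12262 in cDC 1. In M-MDSC 2 the ratio was 0.0343 (0.0195 to 0.0573), from 91 UMIs held by 8 of 36 cells against 18 UMIs held by 9 of 190 cells. A single cell held 29 of those 91 UMIs. These few cells carry the M-MDSC 2 value. Egln3 had a ratio of 0.426 (0.347 to 0.520) in M-MDSC 1 and 0.0888 (0.0499 to 0.154) in M-MDSC 2, where 13 of 36 and 18 of 190 cells held it. Hk2 was at 184 and 58.9 CPM in M-MDSC 1, a ratio of 0.321 (0.227 to 0.446). Over single cells of M-MDSC 1 at 1500 UMIs, the median number of hypoxia subset UMIs was 14 in the APOE2 library and 7 in the APOE4 library, with 90th percentiles of 45 and 28, and the glycolysis median was 9 against 6. The lower sums were therefore present at the middle and at the upper end of the cells.

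Slc16a3, lactate's way out of the cell, had its own pattern among the MDSC labels. It was highest in G-MDSC 1, at 1767 and 1244 CPM, a ratio of 0.704 (0.607 to 0.816). In M-MDSC 1 its 953 and 1003 CPM gave 1.05 (0.954 to 1.16), an interval that includes 1.

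Macrophage markers were lower along with the MDSC results. The 7 used (C1qa, C1qb, C1qc, Mrc1, Adgre1, Apoe, Cd68) summed to 491 CPM in the MDSC class of the APOE2 library and 206 in the APOE4 library, all 7 lower, against 15393 and 13435 CPM in Mø cluster 1. Apoe is the gene that the knock-ins concern, and counts were made on the mouse build mm10. Its UMIs therefore need not reflect macrophage content alike in both libraries. This limit holds for every macrophage marker sum and every cell selection by these markers. In the 440 and 567 MDSC cells without a UMI of any of these markers, a selection made after seeing the data, the medians were -0.41 for glycolysis and -0.68 for the hypoxia subset, and 2 members, Hilpda and Egln3, were lower by at least 2-fold in place of 5. Hilpda there had a log2 ratio of -1.95. A list of 15 genes of dissociation stress, by contrast, differed little, at 30258 and 31102 CPM.

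The monocyte/macrophage class, 1734 and 1557 cells, held members on both sides of 1. Of 36 members 26 had a ratio under 1, where 57.1% of all genes in the class did, and 1 was lower by at least 2-fold, where 6.56% of all genes were, so the count past 2-fold was below that background. None was higher by at least 2-fold, against 3.74% of all genes. The glycolysis median was -0.16 (-0.37 to 0.09) and the hypoxia median -0.40 (-0.80 to -0.16), where the median of all genes was -0.07.

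Among the enzymes lower in this class, Gpi1, the phosphoglucose isomerase, was at 566 and 352 CPM, a ratio of 0.623 (0.601 to 0.646). Aldoa, the aldolase, was at 818 and 639 CPM, a ratio of 0.781 (0.759 to 0.803). Ldha was at 937 and 691 CPM, a ratio of 0.737 (0.718 to 0.757). The same direction held for Gapdh, the glyceraldehyde phosphate dehydrogenase, at 0.716 (0.690 to 0.742), for the mutase Pgam1 at 0.796 (0.773 to 0.821) and for the enolase Eno1 at 0.775 (0.745 to 0.806), while Pkm was close to even at 0.949 (0.928 to 0.971). Slc2a1, Pfkp, Pfkfb3 and Pfkfb4 stood on the other side. Slc2a1 was at 127 and 147 CPM, a ratio of 1.16 (1.09 to 1.24). Pfkp was at 128 and 153 CPM, a ratio of 1.19 (1.12 to 1.27). Pfkfb3 was at 45.6 and 62.5 CPM, a ratio of 1.37 (1.24 to 1.52), and Pfkfb4 at a ratio of 1.40 (1.22 to 1.59). The hexokinases Hk1 at 1.00 (0.893 to 1.12) and Hk2 at 1.07 (0.966 to 1.18) had intervals that include 1. Pgk1, the phosphoglycerate kinase, was at 0.664 (0.582 to 0.757), Tpi1 at 0.814 (0.789 to 0.840), Pfkl at 0.894 (0.821 to 0.974) and Slc16a3 at 0.942 (0.898 to 0.988). Reads of Pgk1, Eno1, Gapdh, Ldha, Aldoa and Mif can be shared with near-identical copies, and the copies Pgk1-rs7 (35 and 12 UMIs) and Eno1b (85 and 49) were low beside Pgk1 (682 and 343) and Eno1 (6973 and 4091) in this class, so values of these genes carry that uncertainty.

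Over the labels, Gpi1 had a ratio under 1 in 23 of 24 labels and an interval below 1 in 17, Aldoa in 22 and 18, Tpi1 in 21 and 18, Gapdh in 22 and 17, Ldha in 22 and 17, Eno1 in 21 and 16, and Pgam1 in 20 and 14. Pkm was lower in 21 of 24 with 13 intervals below 1, Slc16a3 in 16 of 21 with 10, and Pfkl in 17 of 21 with 5. Pfkp had a ratio under 1 in 10 of 24 labels, Pfkfb3 in 7 of the 18 where it was measured, with 6 intervals above 1 and 0 below, and Pfkfb4 in 4 of 13, with 3 intervals above 1 and 0 below. Slc2a1, higher in the monocyte/macrophage class, was lower in 15 of 24 labels, with 3 intervals below 1 and 2 above, and Hk1 in 10 of 20. The labels share the 2 libraries, so these counts describe how wide the pattern was and are not repeats of it.

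In the hypoxia subset of the monocyte/macrophage class, Hilpda was again the lowest, at 298 and 103 CPM and a ratio of 0.345 (0.324 to 0.368). Ak4 followed at 8.59 and 4.33 CPM and a ratio of 0.504 (0.360 to 0.696). Egln3 had a ratio of 0.544 (0.465 to 0.635), Ddit4 of 0.561 (0.475 to 0.660), Ankrd37, an ankyrin-repeat protein induced by HIF, of 0.576 (0.510 to 0.649) and Bnip3 of 0.591 (0.548 to 0.637). Hilpda was the only one of them past 2-fold. Pdk1, the kinase that shuts pyruvate out of the mitochondria, was at 0.662 (0.585 to 0.748) and Mif at 0.686 (0.665 to 0.708). Hif1a was higher, at 318 and 383 CPM and a ratio of 1.20 (1.16 to 1.25), while Bnip3l, the close relative of Bnip3, was at 0.871 (0.820 to 0.926). Ier3 at 1.03 (1.00 to 1.05), P4ha1 at 1.02 (0.948 to 1.09) and Kdm3a, a histone demethylase, at 1.06 (0.925 to 1.22) were close to even. Egln1, the constitutive hydroxylase, was at 0.788 (0.731 to 0.849), Ero1l at 0.766 (0.712 to 0.824), Mxi1 at 0.765 (0.717 to 0.817), Ndrg1 at 0.760 (0.710 to 0.812), Higd1a at 0.898 (0.849 to 0.949), and Adm, with 40 and 18 UMIs, at 0.594 (0.321 to 1.06). Under 5% mitochondrial UMIs per cell, the count past 2-fold lower was 6, and without the label Skin resident Mø (47 and 8 cells) it was 2.

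Giving each label of the class equal weight put the log2 ratio of Hif1a at -0.012. By label its ratio was 1.20 (1.10 to 1.32) in Monocytes 2, 1.09 (0.988 to 1.20) in Mø cluster 1 and 0.832 (0.747 to 0.926) in Mø cluster 2. These labels held 206 and 526, 481 and 245, and 398 and 161 cells, and the part of such shares in the class ratio was not tested. Over all 24 labels Hif1a was lower in 20 and higher in 4, with 6 intervals below 1 and 2 above. Macrophage markers summed to 9558 and 5473 CPM in the class, all 7 lower, and their part in the class ratios was not tested. Within Mø cluster 1 the markers were at 15393 and 13435 CPM, and Hilpda there had a ratio of 0.354 (0.309 to 0.405), with 274 and 97.1 CPM. Hilpda was also lower in Monocytes 1, at 0.287 (0.244 to 0.338), and in Monocytes 2, at 0.211 (0.170 to 0.259). In Mø cluster 2, the label highest in glycolysis, the difference was smaller, with 446 and 356 CPM and a ratio of 0.799 (0.727 to 0.878). There 29 of 36 members had a ratio under 1 (50.1% of all genes), and Ankrd37 at 0.468 (0.363 to 0.595) was the 1 member past 2-fold (3.04% of all genes). In Mø cluster 1, 27 of 35 members had a ratio under 1 (49.3% of all genes) and 5 were lower by at least 2-fold (3.85% of all genes).

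**Figure D4:**
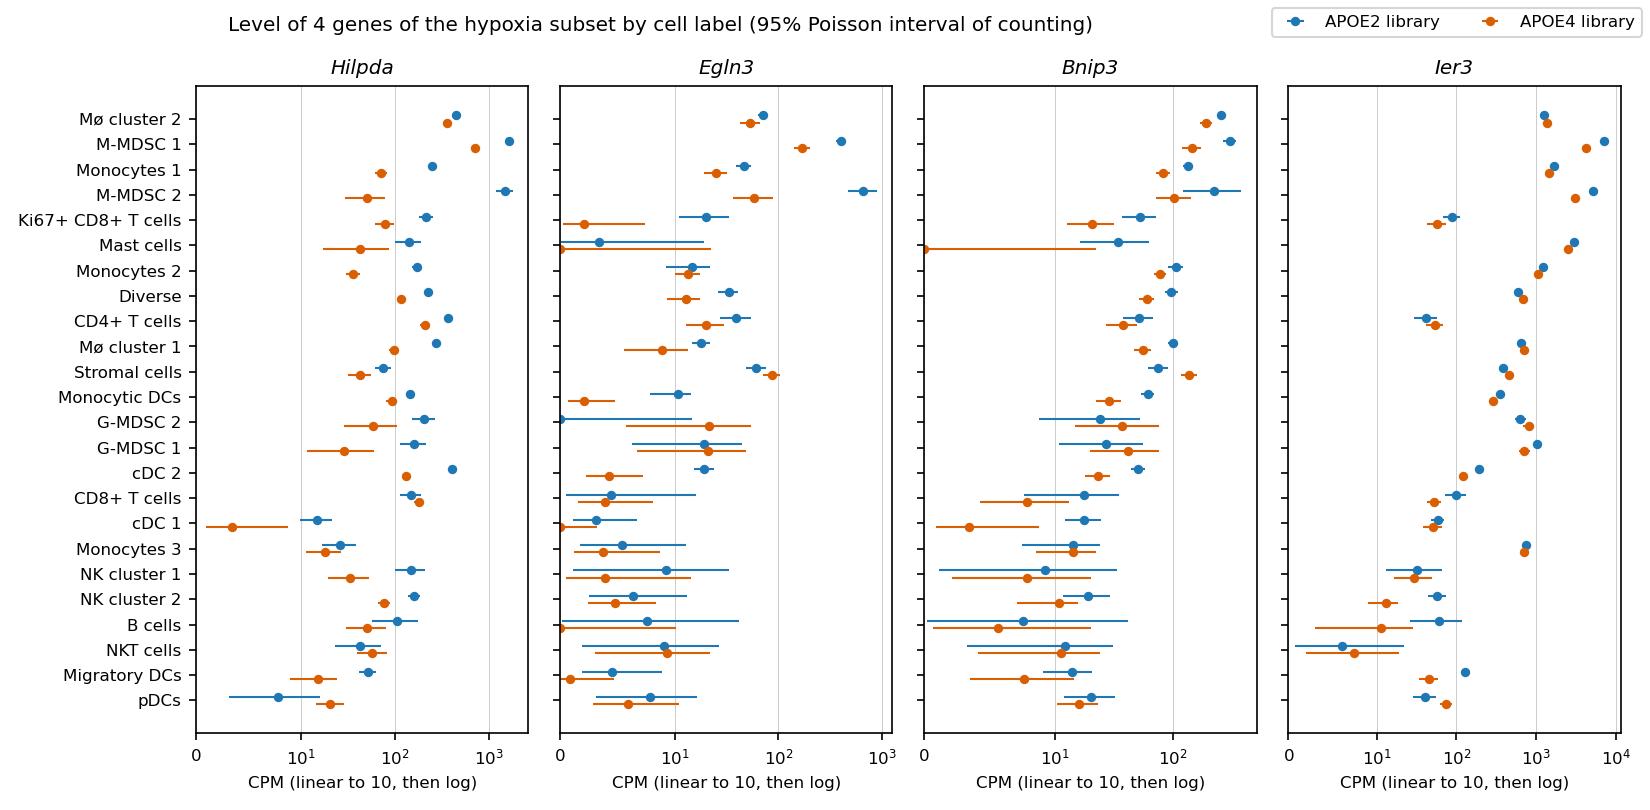
CPM (linear up to 10 and logarithmic above) of Hilpda, Egln3, Bnip3 and Ier3 in the 24 labels, in the order of the plot of summed levels, with 95% Poisson intervals of counting. The APOE4 point (orange) of Hilpda lies below the APOE2 point (blue) in 21 of 24 labels, and the widest gap is in M-MDSC 2, at 1459 against 50.0 CPM.

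The DC class, 852 and 731 cells, had a ratio under 1 in 28 of 34 members, where 39.2% of all genes did, and 3 members were lower by at least 2-fold, where 3.04% of all genes were. None was higher by at least 2-fold, against 3.88%. The medians were -0.36 for glycolysis (-0.40 to -0.11) and -0.40 for the hypoxia subset (-0.65 to -0.11), with 0.08 over all genes. The pDCs, low in both subsets, made up 111 of the 852 cells and 205 of the 731. The part of these shares in the class ratios was not tested. By label, the glycolysis and hypoxia medians were -0.24 and -0.21 in cDC 1 and -0.34 and -0.66 in cDC 2. They were -0.30 and -0.12 in Migratory DCs and 0.06 and -0.03 in the pDCs. All 3 genes past 2-fold belong to the hypoxia subset. Hilpda was at 209 and 64.5 CPM, a ratio of 0.308 (0.278 to 0.341). Bnip3 was at 33.2 and 15.6 CPM, a ratio of 0.469 (0.374 to 0.585). Egln3 was at 11.5 and 3.37 CPM, a ratio of 0.292 (0.179 to 0.459), from 103 and 24 UMIs. Slc16a3, close to even in the MDSC class, was here at 97.5 and 51.1 CPM, a ratio of 0.524 (0.462 to 0.593). The abundant enzymes differed less, with Aldoa at 0.780 (0.739 to 0.822), Ldha at 0.880 (0.845 to 0.917) and Pkm at 0.928 (0.885 to 0.973). Hif1a was even, at 1.02 (0.948 to 1.11). Mif was at 0.910 (0.858 to 0.964) and Ndrg1 at 0.758 (0.699 to 0.821), and both turned to log2 ratios above 0, of 0.0091 and 0.11, when each DC label had equal weight. The other members ranged from 0.534 (Ankrd37) to 1.15 (P4ha1). Thinning every cell to 1500 UMIs put 5 members past 2-fold lower.

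In cDC 2, 29 of 34 members had a ratio under 1 (43.3% of all genes) and 4 were lower by at least 2-fold (3.2% of all genes). The cDC2 markers themselves summed to 3101 and 1532 CPM in this label, and the part of that difference in its ratios was not tested. Hilpda in cDC 2 was at 404 and 131 CPM, a ratio of 0.324 (0.290 to 0.361). Among cDC 2 cells thinned to 1500 UMIs, 27.3% and 10.7% held a UMI of it (52.3% and 34.5% unthinned). The pDCs showed no lean to either side, with 14 of 31 members under 1 (48.2% of all genes) and a glycolysis sum ratio of 0.992 (0.937 to 1.05). Hilpda there, at 7.86 and 20.6 CPM from 7 and 35 UMIs, had a ratio of 2.62 (1.15 to 6.99). Ndrg1 was split within the class, at 0.509 (0.442 to 0.585) in cDC 2 and 1.25 (1.11 to 1.41) in Migratory DCs, where it was at 337 and 421 CPM. The 7 macrophage markers summed to 699 and 330.2 CPM in the DC class, all lower, and their part in these ratios was not tested.

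The T class, 430 and 910 cells, had a ratio under 1 in 31 of 33 members, where 51.6% of all genes did, and in all 16 glycolysis genes measured. Only 1 member was lower by at least 2-fold, where 2.94% of all genes were, and none was higher, against 2.58%. The medians were -0.51 for glycolysis (-0.65 to -0.35) and -0.45 for the hypoxia subset (-0.76 to -0.07). Here Pkm, close to even in macrophages, was at 826 and 526 CPM, a ratio of 0.637 (0.594 to 0.683). Tpi1 was at 320.4 and 170.1 CPM, a ratio of 0.531 (0.472 to 0.598). Aldoa had a ratio of 0.636 (0.589 to 0.687) and Ldha of 0.729 (0.680 to 0.783). The lower values thus reached the last steps of the path. The gene past 2-fold was Egln3, at 23.7 and 10.2 CPM and a ratio of 0.429 (0.266 to 0.691). It was not past 2-fold in the T cells without a macrophage marker UMI described below. Ddit4 was next, at 105 and 53.5 CPM and a ratio of 0.509 (0.413 to 0.629). Mif was at 0.733 (0.669 to 0.804), and Bnip3l was close to even at 0.952 (0.844 to 1.08). Mxi1 at 1.16 (0.957 to 1.41) and Higd1a at 1.01 (0.885 to 1.16) had ratios above 1 with intervals that include 1. The count past 2-fold in this class was 0 with equal weight for each label and 3 among cells under 5% mitochondrial UMIs.

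Hif1a in T cells was at 764 and 518 CPM, a ratio of 0.678 (0.631 to 0.729). CD8+ T cells made up 113 of the 430 cells in the APOE2 library and 477 of the 910 in the APOE4 library, so the labels are given apart. In CD4+ T cells Hif1a was at 984 and 852 CPM, a ratio of 0.866 (0.791 to 0.949). In CD8+ T cells it was at 776 and 408 CPM, a ratio of 0.526 (0.463 to 0.599). The gene was lower in both labels. Hilpda differed between them, at 0.572 (0.484 to 0.676) in CD4+ T cells and 1.22 (0.933 to 1.61) in CD8+ T cells, where 16.2% and 22.0% of thinned cells held a UMI (27.4% and 37.7% unthinned), and this difference was not tested. All 16 glycolysis genes measured in CD8+ T cells were lower, and 15 of 16 in CD4+ T cells. The CD8 markers themselves summed to 2133 CPM in CD8+ T cells of the APOE4 library. In the APOE2 library these markers were highest in the pDCs, at 959 CPM, so its CD8+ T cells held no more than that. The part of this difference in the CD8+ T cell ratios of Hif1a, Hilpda and the glycolysis genes was not tested. Macrophage markers summed to 175 and 97.7 CPM in the T class, lower for all 5 measured. Without cells that held one of them, a selection made after seeing the data, the T class had a glycolysis median of -0.53 and a hypoxia median of -0.29. In the cells kept, Egln3 was at a ratio of 0.555 (0.312 to 1.00), with an interval that includes 1. Ddit4 was past 2-fold lower there, at 0.392 (0.299 to 0.515), and Mxi1 was higher at 1.47 (1.14 to 1.91).

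In the NK class, 247 and 744 cells, 23 of 33 members had a ratio under 1, where 41.6% of all genes did. At least 2-fold lower were 3 members (2.02% of all genes) and at least 2-fold higher 1 (2.77% of all genes). The glycolysis median was -0.31 (-0.52 to -0.02), and the hypoxia median of -0.10 had an interval on both sides of 0 (-0.77 to 0.16). Hilpda was at 157 and 69.0 CPM, a ratio of 0.440 (0.362 to 0.536). Ier3 was at 53.7 and 15.9 CPM, a ratio of 0.295 (0.200 to 0.431), but a single cell of the APOE2 library held 40 of its 71 UMIs there. Without that cell and the cell with the most Ier3 of the APOE4 library the ratio was 0.602 (0.371 to 0.988), which ends its place past 2-fold. The others past 2-fold, Ankrd37 at 0.499 (0.228 to 1.10) and Hk2 at 2.09 (0.783 to 7.03), had few UMIs and intervals that include 1. Of the abundant enzymes, Ldha was at 0.696 (0.635 to 0.764), Pkm at 0.715 (0.646 to 0.793) and Aldoa at 0.716 (0.642 to 0.799), all lower, and Mif was at 0.779 (0.688 to 0.883). Ndrg1 was higher, at 57.5 and 81.9 CPM and a ratio of 1.42 (1.10 to 1.87), while Bnip3l at 1.07 (0.912 to 1.25) and Higd1a at 1.11 (0.949 to 1.31) were not separated from 1. The remaining members ranged from 0.560 (Ero1l) to 1.43 (Mxi1). With no change but a minimum of 100 UMIs, no member was past 2-fold higher, and among cells under 5% mitochondrial UMIs 5 were past 2-fold lower. Macrophage markers summed to 101 and 37.3 CPM, lower for 4 of the 5 measured, and in NK cells without any of them the medians were -0.50 for glycolysis and -0.06 for the hypoxia subset.

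Proliferation genes, which often move with glycolysis, summed to fewer CPM in the APOE4 library in the monocyte/macrophage (78.2 and 45.1), DC (82.2 and 60.9), T (135 and 96.8) and NK classes (104 and 69.4) and to more in the MDSC class (56.3 and 65.4), and their part in the results was not tested. Melanoma genes, a sign of tumour cells or their free RNA, summed to at most 139 CPM in any of the 24 labels. In Skin resident Mø, which has too few cells to be among them and held this list above its other lists, they were at 123 and 109 CPM, from 1 of the 7 genes listed.

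Among the remaining labels, Mast cells (48 and 24 cells) had a ratio under 1 in 22 of 23 members (53.8% of all genes) and 8 lower by at least 2-fold (9.74% of all genes). Ndrg1 in Mast cells was at 489.6 and 133 CPM, a ratio of 0.272 (0.165 to 0.428). Mast cell markers summed to 63480 and 29937 CPM in this label and basophil markers to 486 and 2719. The part of these differences in the Mast cell values was not tested. In Monocytic DCs 33 of 35 members were under 1 (49.3% of all genes) and 5 were lower by at least 2-fold (3.59% of all genes), among them Ankrd37 at 0.257 (0.154 to 0.407). In B cells (36 and 62 cells), 11 of 18 members had a ratio under 1, against 1667 of 3625 genes measured there, and the member median was -0.15. At least 2-fold lower was 1 member (197 of all genes there) and at least 2-fold higher 1 (466 of all genes there). Among the 7 members with a ratio above 1, Ldha was at 1.65 (1.14 to 2.45) and Mif at 2.01 (1.36 to 3.08).

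In the Stromal cells, 85 in each library, 6 of 34 members had a ratio under 1, where 47.3% of all genes did, with 1 member past 2-fold lower (3.3% of all genes) and 1 past 2-fold higher (3.13% of all genes). The glycolysis sum was 5342 and 5567 CPM, a ratio of 1.04 (1.01 to 1.08), and the hypoxia sum 2291 and 2749 CPM, a ratio of 1.20 (1.14 to 1.26). With cells thinned to 1500 UMIs both sums turned, to 5576 and 5458 CPM for glycolysis and 2563 and 2436 for the hypoxia subset. Skin resident Mø, with 47 and 8 cells, also had a hypoxia sum ratio above 1, at 1.26 (1.14 to 1.40). Bnip3 in Stromal cells was at 75.0 and 138 CPM, a ratio of 1.84 (1.43 to 2.38), and of 1.80 (1.37 to 2.39) without the cell of each library that held the most of it. Egln3 was at 61.2 and 86.3 CPM, a ratio of 1.41 (1.05 to 1.90), and 1.31 (0.946 to 1.83) without those cells. It was found in 36 of 85 APOE2 cells and 27 of 85 APOE4 cells, so the share of cells ran opposite to the CPM. Ero1l was at a ratio of 1.35 (1.11 to 1.64), with 84 of its 235 UMIs in the APOE4 library in 1 cell, and at 1.19 (0.939 to 1.50) without the richest cells. Ankrd37 at 1.65 (1.16 to 2.36) and Ndrg1 at 1.61 (1.16 to 2.26) likewise came to intervals that include 1, at 1.35 (0.874 to 2.08) and 1.18 (0.754 to 1.85). The interval of Mif, at 1.26 (1.13 to 1.40), remained above 1, at 1.24 (1.11 to 1.38). Hilpda was lower, at 75.0 and 42.8 CPM and a ratio of 0.570 (0.400 to 0.803), as was Ddit4 at 0.494 (0.281 to 0.841). For Hilpda 1 cell held 24 of the 103 UMIs in the APOE2 library, and 1 cell held 23 of the 52 in the APOE4 library. Macrophage markers in this label summed to 521 and 46.9 CPM, and their part was not tested.

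A further 44 genes of the same pathways, listed beside the members, were also measured. In the MDSC class 16 of the 25 measured had a ratio under 1 (50.4% of all genes), in the DC class 20 of 35 (39.2%), in the T class 16 of 30 (51.6%), in the NK class 15 of 28 (41.6%) and in the monocyte/macrophage class 25 of 38 (57.1%). The class medians lay between -0.18 and -0.03. In the MDSC class Fam162a, a HIF target of cell death, was at 229 and 85.6 CPM, a ratio of 0.374 (0.304 to 0.458). The chemokine receptor Cxcr4 was higher there, at 443 and 892 CPM, a ratio of 2.01 (1.83 to 2.21). In the DC class the phosphoglycerate mutase Pgam2 was at 5.81 and 32.0 CPM, a ratio of 5.50 (4.06 to 7.59), while its relative Pgam1 was at 0.771 (0.728 to 0.815). The hexokinase Hk3 was also higher in the DC class, at 2.59 (1.65 to 4.15). The pDCs made up 111 of the 852 cells of this class and 205 of the 731, and their part in these ratios was not tested. Of the 35 genes, 2 were at least 2-fold lower there (3.04% of all genes) and 2 higher (3.88%). In the T class 3 of the 30 were at least 2-fold lower (2.94% of all genes), among them Ldhb, a relative of Ldha, at 0.318 (0.158 to 0.624). In the monocyte/macrophage class P4ha2, a partner of P4ha1 in collagen hydroxylation, was lower at 0.405 (0.299 to 0.542).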

How the data were processed

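Deposited raw UMI counts per gene and cell were used for 1 library of each genotype, with the cell labels and the percent of mitochondrial UMIs of each cell from the authors' deposited metadata. The counts came from Cell Ranger 3.0.1 on mm10, per the file headers and the submitters' processing notes, which also name Seurat 3.0.2. The authors' handling of strand and of doublets was not given in the sources used here, and no doublets were called. Counts were summed over the cells of a label or class in Python 3.11.15 (numpy 2.4.6, scipy 1.17.1, pandas 2.3.3, matplotlib 3.10.9) and divided by the total UMIs of those cells, in CPM. Class sums mix labels whose shares differ between the libraries. Intervals are exact Poisson (CPM), exact conditional binomial (ratios) or Clopper-Pearson (shares of cells) at 95%, and intervals of list medians are order-statistic intervals over the members. Ratios need at least 20 UMIs over both libraries, and 2-fold marks a call, without a test, since each genotype has 1 library. The ratio and interval code was tested on simulated data.

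All members are accounted for. Those past 2-fold with an interval that excludes 1, and the members with the most UMIs of each subset, are named with values in each class. The members and lists were chosen with earlier results of these data known. Alternatives weighted labels equally, thinned each cell to 1500 UMIs, kept cells under 5% mitochondrial UMIs, left out the 10% of cells with the most UMIs, changed the UMI minimum to 1 or 100, took totals without ribosomal, mitochondrial and haemoglobin genes, or centred on the median of all genes. Leaving out a label, cells with a macrophage marker or the cell richest in a gene was chosen after seeing the data. Another marker listed for macrophages is not reported here and was left out of their sums. Gene positions are from GENCODE M21, in which all 36 members were found, and promoters are from RefSeq. Barcodes without a cell label (398 and 304) were left out of all comparisons.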

Additional observations from a re-analysis of the deposited data

Results flagged for a closer look

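For 5 members the ratio of APOE4 to APOE2 stood on opposite sides of 1 in a pair of classes, each with a counting interval that excludes 1. With 1 library per genotype, none of these differences was tested. Slc2a1 had a log2 ratio of 0.22 in the monocyte/macrophage class and -0.51 in the T class. Pfkp had 0.25 in the monocyte/macrophage class and -0.63 in the MDSC class. Ndrg1 had 0.51 in the NK class and -0.77 in the T class. Hif1a had 0.27 in the monocyte/macrophage class, a sign that turned with equal weight per label, and -0.56 in the T class. Ier3 had 0.036 in the monocyte/macrophage class, a sign that turned under 5 alternatives (down to -0.12 with cells thinned), and -1.76 in the NK class, where 1 cell of the APOE2 library held 40 of its 71 UMIs and the value was -0.73 without the cell of each library that held the most.

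Barcodes that the authors' annotation leaves without a cell type, 398 in the APOE2 library and 304 in the APOE4 library, also held both gene sets. Glycolysis genes were at 4562 CPM in the unnamed barcodes of the APOE2 library, against 5362 in its named cells, and at 5149.9 CPM in those of the APOE4 library, against 4150.4 in its named cells. Genes of the hypoxia subset were at 1755 CPM in the unnamed barcodes of the APOE2 library (3027 in named cells) and at 2163 CPM in those of the APOE4 library (2369 in named cells). What these barcodes hold was not tested.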

How the results depend on the processing

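Of 92 alternative values for the 10 class medians, all 92 kept their sign and 90 stayed within the interval of the reported value. The 2 that did not were the hypoxia median of the MDSC class, -0.81 with cells thinned to 1500 UMIs, and the glycolysis median of the DC class, -0.44 when centred on the median of all genes. Of 418 alternative values for the 41 single-gene ratios named, 405 kept their sign. Of the other 13 values, 5 belong to ratios whose interval includes 1 (Hif1a in the DC class, Bnip3l in the T and NK classes). The remaining 8 values, of 4 ratios whose interval excludes 1, were Ier3 in the monocyte/macrophage class, at -0.041 with equal weight per label, -0.12 thinned, -0.11 under 5% mitochondrial UMIs, -0.015 with totals without ribosomal, mitochondrial and haemoglobin genes and -0.029 without Skin resident Mø, Hif1a in that class at -0.012 with equal weight, and, with equal weight, Mif at 0.0091 and Ndrg1 at 0.11 in the DC class. Counts of members past 2-fold were less stable. For the monocyte/macrophage class the count lower was 3 when thinned, 6 under 5% mitochondrial UMIs, and 2 without the richest cells, with the other totals or without Skin resident Mø. For the MDSC class it was 8 when thinned or without the richest cells, 3 with equal weight or without M-MDSC 2, and 2 in cells without a macrophage marker, and for the DC class 5 when thinned. For the T class it was 0 with equal weight or a minimum of 100 UMIs, 2 when thinned, without the richest cells or with a minimum of 1 UMI, and 3 under 5% mitochondrial UMIs. For the NK class it was 1 when thinned and 5 under 5% mitochondrial UMIs, and the count higher was 0 with equal weight, thinned, under 5% mitochondrial UMIs, without the richest cells, with a minimum of 100 UMIs, centred, or in cells without a macrophage marker. The cause of these shifts was not tested. Totals without ribosomal, mitochondrial and haemoglobin genes put the median of all genes in the monocyte/macrophage class at -0.12. No paired analysis was possible because each genotype has 1 library and the labels give no replicate numbers. Depth limited the MDSC class most, where 273 of 726 and 259 of 797 cells had fewer than 1500 UMIs and left the thinned values.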
